A study of Mus musculus with 16 samples.

Results

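Tuft cells are rare chemosensory cells of the gut epithelium, and 10 genes that mark them or carry their type 2 signalling were followed through the ileum of EtOH-fed and pair-fed (PF) mice. The genes are Pou2f3, Gfi1b, Sucnr1, Gnat3, Trpm5, Il17rb, Dclk1, Avil, Sh2d6 and Il25. They were picked as known marker and signalling genes, by the Ensembl identifiers of their symbols, from a table of 21965 genes. All 10 were found. Of these, 8 passed the filter on low counts that left 13811 genes to be tested, and Gfi1b and Il25 did not.

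Tuft cells sense luminal metabolites with receptors and a signalling chain shared with taste cells, in which G proteins, phospholipase C and calcium release open the TRPM5 channel. In the small intestine they are the main epithelial source of the cytokine IL-25, which acts through IL-17RB on innate lymphoid cells, and the IL-13 that these cells release leads to more tuft and goblet cells. Their development needs the transcription factor POU2F3, and they also make leukotrienes, prostaglandin D2 and acetylcholine.

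POU2F3 belongs to the POU factors, whose binding motif is the octamer ATGCAAAT. The RefSeq promoter windows of the mouse build GRCm38.p6, each running from 250 bases before to 50 bases after an annotated start, include 9 windows for 8 of the 10 genes, with 2 for Dclk1 and none for Pou2f3 and Il25. The octamer was searched on both strands, together with its first 7 bases, ATGCAAA, which every octamer also holds. The octamer was present in 1 of the 9 windows, that of Sucnr1, and in 1.74% of all 32851 windows. The shorter motif was present in 2 of the 9, those of Sucnr1 and Avil, and in 4.63% of all windows. The 250 bases before the start of these 2 genes are shown because they hold the matches, which are in capitals, each sequence 5′ to 3′ on the plus strand of its gene.
Sucnr1, chr3:60081619-60081868, plus strand: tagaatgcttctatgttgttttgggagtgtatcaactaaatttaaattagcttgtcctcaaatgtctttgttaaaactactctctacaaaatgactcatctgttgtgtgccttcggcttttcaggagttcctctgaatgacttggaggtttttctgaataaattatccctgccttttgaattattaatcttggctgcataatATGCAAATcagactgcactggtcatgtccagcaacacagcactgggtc
Avil, chr10:127000459-127000708, plus strand: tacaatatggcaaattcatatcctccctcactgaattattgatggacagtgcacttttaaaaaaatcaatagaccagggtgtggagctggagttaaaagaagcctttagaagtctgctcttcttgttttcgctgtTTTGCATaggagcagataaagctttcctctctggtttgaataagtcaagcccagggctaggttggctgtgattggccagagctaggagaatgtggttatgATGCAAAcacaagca
In Sucnr1 the octamer begins 48 bases before the start. In Avil the shorter motif begins 15 bases before the start as written and 115 bases before it as its reverse complement, TTTGCAT. These matches are descriptions of the letters in the windows, and binding was not measured.

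RNA-seq was performed on the ileum of 16 young adult male C57BL/6 mice, with 1 library per mouse. The WT groups held 4 PF and 3 EtOH mice and the fat-1 groups 4 PF and 5 EtOH mice, and they were compared to ask how EtOH and the fat-1 genotype change the ileal transcriptome. The labels write the genotype as Fat1+/-, and the mice were heterozygous for fat-1, a C. elegans desaturase gene expressed in all tissues that converts n6 to n3 fatty acids, with WT littermates as controls. It is not the mouse gene Fat1. All mice received a liquid diet. EtOH was raised stepwise to 6% for the last 3 weeks, and PF mice received an isocaloric diet without EtOH. RNA came from a flushed segment of terminal ileum, with no sorting or separation of layers described, so that a change in the number of tuft cells and a change in the RNA per tuft cell cannot be told apart. Levels are given as CPM, the counts scaled to a common total by the TMM-adjusted library size.

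The libraries held 8422645 to 11438539 counted reads, at which 3 counts are 0.246 to 0.421 CPM. Marker genes of gut regions set 5 libraries apart from their label or group, and markers of immune cells set apart a further one. The summed level of 10 large intestine genes was 12698 and 13765 CPM in fat-1 EtOH replicates 3 and 4 and 5433 CPM in WT EtOH replicate 2, against 374 to 636 CPM in the other 13 libraries. In the same fat-1 EtOH libraries the summed Paneth cell genes, which mark the small intestine, were at 128 and 117 CPM, against 6619 to 26093 CPM elsewhere. In fat-1 PF replicates 2 and 4 the summed ileal bile acid genes were at 493 and 443 CPM, against 1083 CPM or more in every other library, and the summed proximal small intestine genes were at 56153 and 53724 CPM. The proximal genes were at 3332 to 56153 CPM in PF and at 744 to 1648 CPM in EtOH libraries, so that these genes also moved with the diet, and their part in the tuft cell results was not tested. In fat-1 EtOH replicate 5 the summed B-cell follicle genes were at 502 CPM (2.05 to 100.3 CPM elsewhere), the ILC2 and T cell genes at 191 CPM (45.9 to 77.0 CPM elsewhere) and the macrophage genes at 706 CPM (122 to 315 CPM elsewhere). Results are therefore given with all 16 libraries, without the 3 libraries high in large intestine genes, without all 5 libraries that gut region genes set apart, and without the 3 and fat-1 EtOH replicate 5.

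The summed level of the 10 genes was 37.8, 44.6, 45.0 and 54.4 CPM in the WT PF libraries and 37.9, 41.4, 60.4 and 60.8 CPM in the fat-1 PF libraries, where the 2 highest were replicates 2 and 4. It was 64.0, 77.1 and 101.7 CPM in the WT EtOH libraries and 37.9, 54.5, 73.7, 77.0 and 96.7 CPM in the fat-1 EtOH libraries. All 3 WT EtOH libraries were above all 4 WT PF libraries. The fat-1 groups overlapped, since the 2 lowest fat-1 EtOH values came from replicates 4 and 3, the libraries high in large intestine genes. The lowest WT EtOH value likewise came from replicate 2. The summed level of 9 genes of all epithelium was 12213 to 19286 CPM in PF and 12217 to 17060 CPM in EtOH libraries, and the median of the 10 genes for each 1000 CPM of these epithelial genes was 2.72 CPM (PF) and 4.90 CPM (EtOH) in WT mice, and 3.63 CPM (PF) and 4.32 CPM (EtOH) in fat-1 mice.

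**Figure D1:**
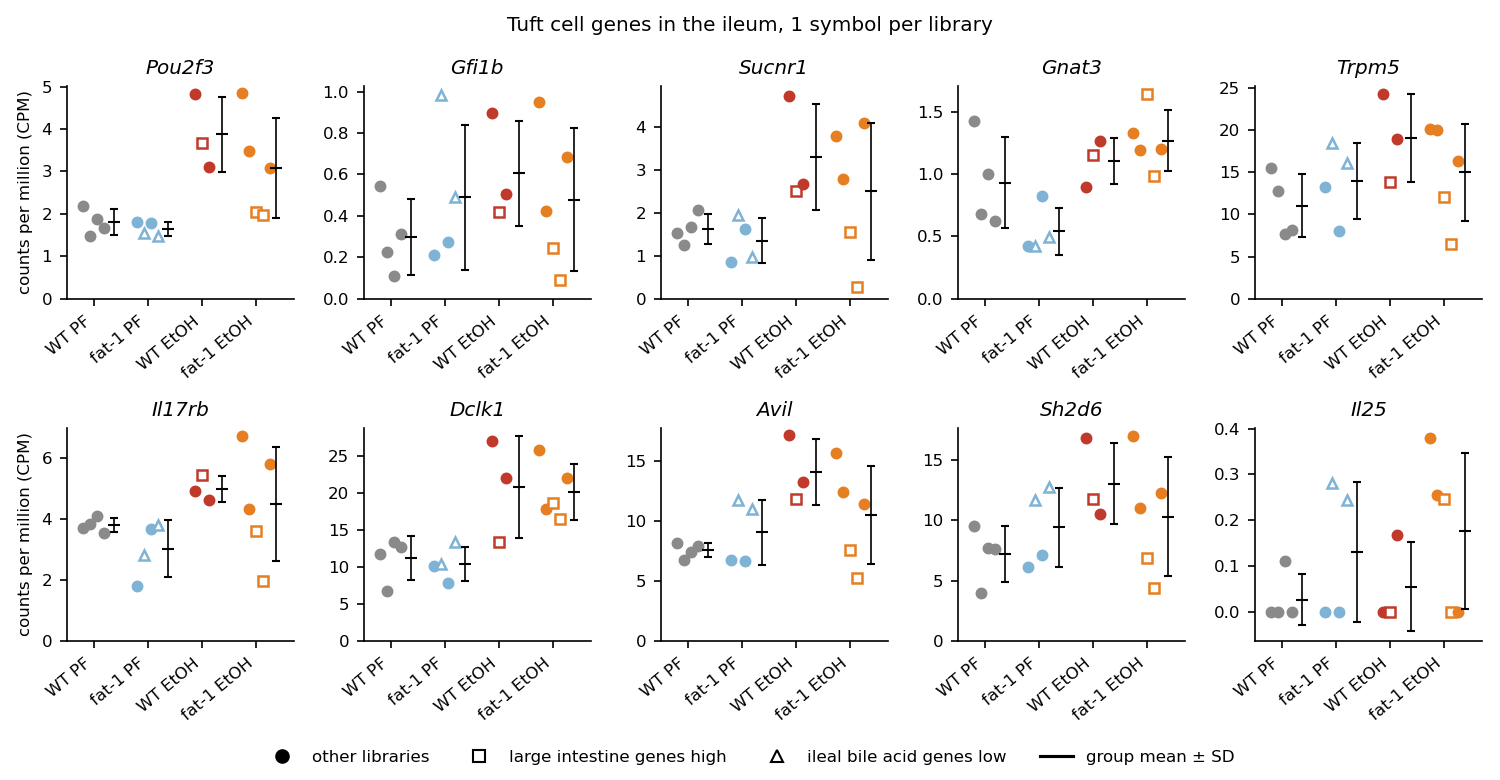
CPM of each of the 10 tuft cell genes (y axis, each panel with its own scale) in the 4 groups, with 1 symbol per library and the group mean ± SD in black. Open squares are the 3 libraries high in large intestine genes, which gave the 2 lowest fat-1 EtOH values of Pou2f3, Gfi1b, Sucnr1, Trpm5, Il17rb, Avil and Sh2d6, and open triangles are the 2 fat-1 PF libraries low in ileal bile acid genes.

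Between genes, levels are comparable only per length of exon, and on this scale Sh2d6 was the most abundant, at 5.81 ± 2.31 CPM per kb (SD over 16 libraries). Avil followed at 2.97 ± 1.03 and Trpm5 at 2.27 ± 0.812 CPM per kb. Sucnr1 (1.31 ± 0.752), Il17rb (1.09 ± 0.350), Dclk1 (1.02 ± 0.402), Pou2f3 (0.827 ± 0.371) and Gnat3 (0.713 ± 0.273 CPM per kb) came next, and neighbours among these 5 differed by less than their SD. Gfi1b (0.252 ± 0.157) and Il25 (0.0991 ± 0.127 CPM per kb) were the lowest. The exon length of Dclk1 is the union of long alternative transcripts, 15296 bases, which lowers its value per length. The ends of Trpm5, Avil and Il17rb overlap opposite-strand neighbours (Tssc4 by 220 bases, Tsfm by 165 and Actr8 by 141), and Dclk1 overlaps Gm21954. The libraries kept strand, but the strand setting of the counting is not given in the sources used here.

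Pou2f3, which encodes the factor that tuft cells need to form, lies at chr9:43123939-43210369 on the minus strand (ENSMUSG00000032015; GENCODE M21, GRCm38). It was at 2.19, 1.47, 1.89 and 1.66 CPM in the WT PF libraries (replicates 1 to 4) and at 1.80, 1.54, 1.78 and 1.47 CPM in those of fat-1 PF mice. It was at 4.83, 3.67 and 3.11 CPM in WT EtOH replicates 1 to 3 and at 4.85, 3.49, 2.05, 1.96 and 3.08 CPM in fat-1 EtOH replicates 1 to 5. Within each genotype every EtOH library was above every PF library, and the 2 lowest fat-1 EtOH values were those of the libraries high in large intestine genes. With EtOH in fat-1 mice Pou2f3 rose by 0.89 on the log2 scale (SE 0.28, 1.86-fold, edgeR adjusted p = 0.0209), a call that held in 24 of 28 alternatives. The call was lost without fat-1 PF replicate 2 or 4, the libraries low in ileal bile acid genes. It was also lost without all 5 libraries (1.09, SE 0.33, adjusted p = 0.0530) and with only the groups compared (0.92, SE 0.32, adjusted p = 0.0624). In WT mice the log2 fold change was 1.10 (SE 0.30), with an adjusted p of 0.175 in edgeR's quasi-likelihood test. Averaged over the genotypes it rose by 1.00 (SE 0.20, adjusted p = 0.00236).

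Gfi1b, a zinc finger factor of tuft cells and of blood lineages (chr2:28609450-28621982, minus strand, ENSMUSG00000026815), had 1 to 10 counts per library. WT mice had 0.299 ± 0.184 CPM with PF (SD, n = 4) and 0.606 ± 0.254 CPM with EtOH (n = 3), and fat-1 mice had 0.490 ± 0.350 CPM with PF (n = 4) and 0.479 ± 0.344 CPM with EtOH (n = 5). The groups overlapped in each comparison. The two-sided exact permutation test on log2(CPM + 0.5) gave p = 0.143 with EtOH in WT mice, where the smallest possible p is 0.0286, and p = 0.897 with EtOH in fat-1 mice, so that no difference was detectable at this depth.

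Sucnr1 encodes the receptor by which tuft cells sense succinate (chr3:60081869-60087566, plus strand, ENSMUSG00000027762), and with Dclk1 and Itpr2 it is one of the tuft cell markers that the study named from these mice, so that these 3 genes are not independent evidence. The other genes come from the same mice and were also chosen with earlier results of these data known. Sucnr1 was at 1.53, 1.24, 1.67 and 2.08 CPM in the WT PF libraries (replicates 1 to 4) and at 0.848, 1.97, 1.64 and 0.982 CPM in those of fat-1 PF mice. It was at 4.75, 2.52 and 2.69 CPM in WT EtOH replicates 1 to 3 and at 3.80, 2.81, 1.56, 0.268 and 4.11 CPM in fat-1 EtOH replicates 1 to 5. The WT groups did not overlap, whereas the fat-1 EtOH value of replicate 4, from 3 counts, was the lowest of all 16 libraries. The log2 fold change was 1.02 (SE 0.57, edgeR adjusted p = 0.428) in WT and 0.89 (SE 0.54, adjusted p = 0.199) in fat-1 mice. Without the 3 libraries high in large intestine genes Sucnr1 rose by 1.44 in fat-1 mice (SE 0.33, adjusted p = 0.00773, range over the 27 alternatives 0.00773 to 0.504). Its highest fat-1 EtOH value was in replicate 5, the library high in immune cell genes, and without the 3 and this library it rose by 1.33 (SE 0.36, adjusted p = 0.0278).

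Gnat3, the G protein alpha subunit gustducin of taste signalling (chr5:17962549-18019834, plus strand, ENSMUSG00000028777), was at 1.42, 0.679, 1.00 and 0.624 CPM in the WT PF libraries (replicates 1 to 4) and at 0.424, 0.421, 0.820 and 0.491 CPM in those of fat-1 PF mice. It was at 0.895, 1.15 and 1.26 CPM in WT EtOH and at 1.33, 1.19, 1.64, 0.981 and 1.198 CPM in fat-1 EtOH replicates in order. The WT groups overlapped and the fat-1 groups did not. Gnat3 rose with EtOH in fat-1 mice by 1.23 (log2, SE 0.32, 2.34-fold, edgeR adjusted p = 0.00899), with 3 to 6 counts per fat-1 PF library and 11 to 20 counts per fat-1 EtOH library. It passed the filter on low counts mainly through the EtOH libraries, where it was higher, so that this call is not independent of the filter. In WT mice its log2 fold change was 0.24 (95% confidence interval -0.47 to 0.96). The highest fat-1 EtOH value was in a library high in large intestine genes. The call was lost in 2 of 27 alternatives, without all 5 libraries (1.03, SE 0.49, adjusted p = 0.166) and without the 3 and fat-1 EtOH replicate 5 (1.25, SE 0.44, adjusted p = 0.0643).

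Trpm5, the cation channel that depolarises taste and tuft cells (chr7:143069153-143094642, minus strand, ENSMUSG00000009246), was at 15.5, 12.8, 7.66 and 8.21 CPM in the WT PF libraries (replicates 1 to 4) and at 13.2, 18.5, 8.06 and 16.1 CPM in those of fat-1 PF mice. It was at 24.4, 13.9 and 19.0 CPM in WT EtOH and at 20.1, 19.99, 12.1, 6.51 and 16.3 CPM in fat-1 EtOH replicates in order. The groups overlapped in both genotypes. The log2 fold changes were 0.79 (SE 0.37, edgeR adjusted p = 0.357) in WT and 0.10 (SE 0.33, adjusted p = 0.825) in fat-1 mice. The fat-1 value was 0.46 (SE 0.27, adjusted p = 0.215) without the 3 libraries high in large intestine genes, 0.55 (SE 0.31, adjusted p = 0.228) without the 3 and fat-1 EtOH replicate 5, and 0.82 (SE 0.31, adjusted p = 0.101) without all 5. Averaged over the genotypes Trpm5 passed only in some fits, with a log2 fold change of 0.72 (SE 0.20, adjusted p = 0.0179) without the 3 libraries high in large intestine genes, against 0.45 (SE 0.25, adjusted p = 0.174) with all 16 (range over the 27 alternatives 0.0105 to 0.367).

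Il17rb, the IL-25 receptor subunit (chr14:29996135-30008896, minus strand, ENSMUSG00000015966), was at 3.72, 3.85, 4.11 and 3.53 CPM in WT PF and at 4.92, 5.46 and 4.62 CPM in WT EtOH replicates in order. In fat-1 mice it was at 1.80, 2.81, 3.69 and 3.80 CPM in PF and at 6.75, 4.34, 3.61, 1.96 and 5.82 CPM in EtOH replicates in order. The WT groups did not overlap and the fat-1 groups did, where the lowest fat-1 EtOH values, 3.61 and 1.96 CPM, were those of the libraries high in large intestine genes. The log2 fold changes were 0.39 (SE 0.33, edgeR adjusted p = 0.616) in WT and 0.57 (SE 0.30, adjusted p = 0.149) in fat-1 mice. Without the 3 libraries high in large intestine genes the fat-1 change was 0.93 and passed (SE 0.24, adjusted p = 0.0148, range over the 28 alternatives 0.0148 to 0.381).

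Dclk1, a microtubule-associated kinase that is the most used marker of gut tuft cells and is also expressed in neurons (chr3:55242364-55539068, plus strand, ENSMUSG00000027797), was at 11.8, 6.79, 13.3 and 12.7 CPM in the WT PF libraries in order and at 10.2, 10.4, 7.79 and 13.4 CPM in those of fat-1 PF mice. It was at 27.0, 13.3 and 22.0 CPM in WT EtOH and at 25.8, 17.8, 18.6, 16.5 and 22.1 CPM in fat-1 EtOH replicates in order. Within each genotype the groups did not overlap, although WT EtOH replicate 2, which was high in large intestine genes, was level with the highest WT PF library. Dclk1 rose with EtOH in fat-1 mice by 0.95 (log2, SE 0.24, 1.93-fold, edgeR adjusted p = 0.00714), and it passed in all 28 alternatives, with a log2 fold change of 0.84 to 1.29. In WT mice the log2 fold change was 0.90 (SE 0.26) with an adjusted p of 0.187, and without the 3 libraries high in large intestine genes it was 1.13 (SE 0.25, adjusted p = 0.0628, range over the 28 alternatives 0.00704 to 0.576). Averaged over the genotypes Dclk1 rose by 0.92 (SE 0.18, adjusted p = 0.00159). The summed neuron and glia genes moved in the same direction, from 13.4 to 23.6 CPM in PF to 21.3 to 65.4 CPM in EtOH libraries, and their part in the Dclk1 result was not tested.

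Avil encodes advillin, an actin-binding protein of the tuft cell brush (chr10:127000709-127020994, plus strand, ENSMUSG00000025432). It was at 8.20, 6.79, 7.44 and 7.90 CPM in WT PF and at 17.2, 11.9 and 13.3 CPM in WT EtOH replicates in order. In fat-1 mice it was at 6.78, 11.8, 6.70 and 11.05 CPM in PF and at 15.7, 12.4, 7.63, 5.26 and 11.5 CPM in EtOH replicates in order. The WT groups did not overlap and the fat-1 groups did: both fat-1 PF libraries low in ileal bile acid genes were above both fat-1 EtOH libraries high in large intestine genes. The log2 fold changes were 0.90 (SE 0.31, edgeR adjusted p = 0.232) in WT and 0.21 (SE 0.27, adjusted p = 0.565) in fat-1 mice. Averaged over the genotypes Avil rose by 0.55 (SE 0.21, adjusted p = 0.0487), a call that held in 11 of 27 alternatives. Without all 5 libraries the fat-1 change was 0.98 (SE 0.20) and passed (adjusted p = 0.0173, range over the 28 alternatives 0.0173 to 0.936).

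Sh2d6, an SH2 domain protein enriched in tuft cells (chr6:72513641-72521707, minus strand, ENSMUSG00000052631), was at 9.51, 3.96, 7.66 and 7.59 CPM in WT PF and at 16.8, 11.8 and 10.5 CPM in WT EtOH replicates in order. In fat-1 mice it was at 6.15, 11.7, 7.11 and 12.8 CPM in PF and at 17.0, 11.1, 6.89, 4.37 and 12.2 CPM in EtOH replicates in order. The WT groups did not overlap, and the fat-1 groups overlapped in the manner of Avil. The log2 fold changes were 0.86 (SE 0.40, edgeR adjusted p = 0.356) in WT and 0.13 (SE 0.36, adjusted p = 0.791) in fat-1 mice. Leaving out all 5 libraries gave a fat-1 value of 1.03 (SE 0.34, adjusted p = 0.0698).

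Il25, the cytokine by which tuft cells call on innate lymphoid cells (chr14:54932695-54935837, plus strand, ENSMUSG00000040770), had no count in 9 of the 16 libraries and at most 4 counts in any. At this depth a count of 0 allows up to 0.246 to 0.421 CPM, and the highest value was 0.380 CPM, in fat-1 EtOH replicate 1, so that no difference in Il25 was detectable. The two-sided exact permutation test gave p = 0.714 in both EtOH comparisons. These limits cover counting error only.

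Counted by comparison, 0 of the 8 genes tested passed with EtOH in WT mice by edgeR's quasi-likelihood test, where 0.0796% of all genes passed, and 3 of the 8 (Dclk1, Pou2f3 and Avil) had an unadjusted p under 0.05, all as higher, as had 7.05% of all genes. DESeq2 also called 0 of the 6 to which it gave an adjusted p (none for Sucnr1 and Gnat3), whereas limma voom with sample quality weights called 6 of the 8 and 2800 of all genes. All 8 log2 fold changes were positive, with a median of 0.88 against 0.01 for all genes tested, and for 6 genes the groups did not overlap, which held with EtOH higher for 12.2% of all genes. With EtOH in fat-1 mice 3 of the 8 (Dclk1, Pou2f3 and Gnat3) rose and 0 fell, where 37.4% of all genes passed with 18.7% as higher and 18.8% as lower. Of these, Gnat3 passed the filter on low counts mainly through the EtOH libraries. The median log2 fold change of the 8 was 0.73 against 0.05. For the same 3 genes the groups did not overlap, as for 10.6% of all genes with EtOH higher. Averaged over the genotypes 4 of the 8 rose and 0 fell, where 35.9% passed and 18.3% passed as higher.

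Without the 3 libraries high in large intestine genes, 0 of 8 passed in WT mice (0.189% of all genes), 5 of 8 rose in fat-1 mice (29.7% of all genes passed, 13.9% as higher) and 7 of 8 rose averaged over the genotypes, all but Gnat3 (32.9% passed, 15.9% as higher). Without all 5 libraries, 2 of 8 rose in WT mice, Dclk1 and Avil (3.41% of all genes passed, 1.65% as higher). In fat-1 mice 4 of 8 rose, Dclk1, Avil, Il17rb and Sucnr1 (11.9% passed, 4.27% as higher), and averaged over the genotypes 7 of 8 rose, again all but Gnat3 (27.6% passed, 12.9% as higher). Without the 3 and fat-1 EtOH replicate 5, 0 of 8 passed in WT mice (0.22% of all genes), 4 of 8 rose in fat-1 mice, Dclk1, Pou2f3, Il17rb and Sucnr1 (17.5% passed, 7.24% as higher), and 7 of 8 rose averaged over the genotypes, all but Gnat3 (28.8% passed, 13.5% as higher). These fits rest on 2 WT EtOH and 2 or 3 fat-1 EtOH libraries, and those without all 5 also on 2 fat-1 PF libraries.

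**Figure D2:**
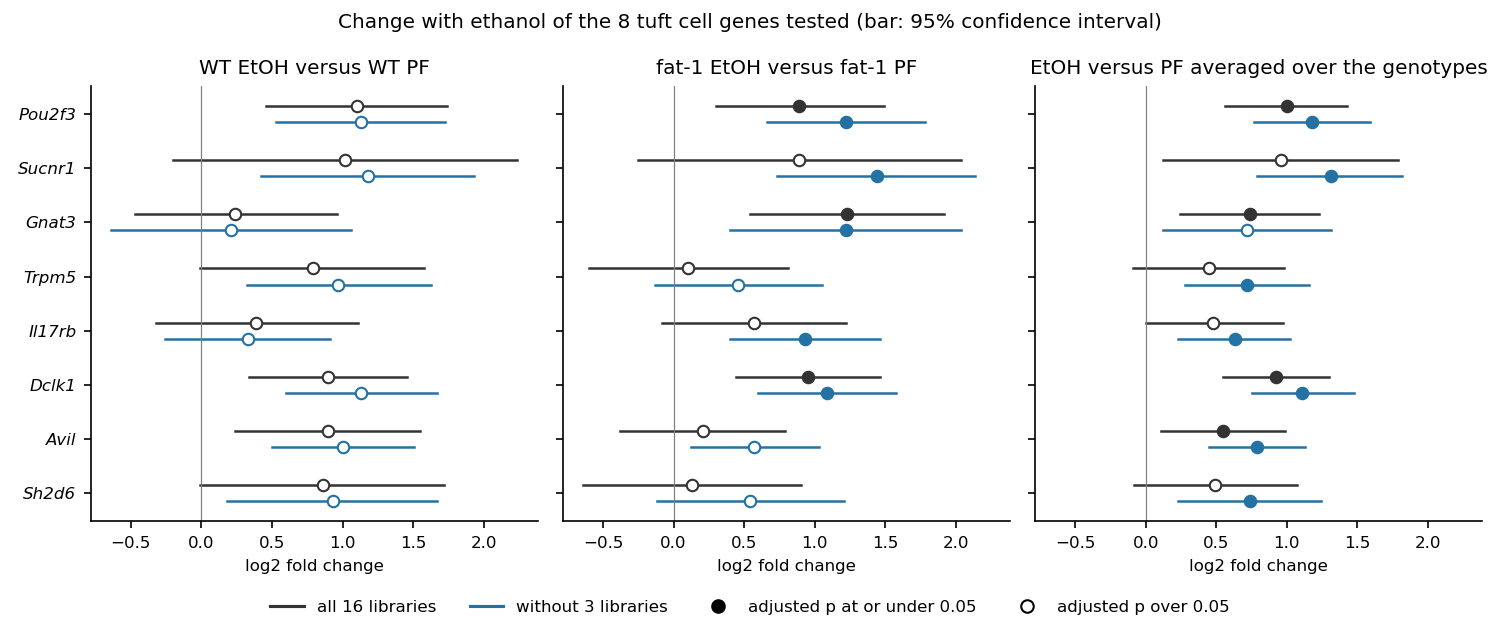
Log2 fold change with EtOH (x axis) of the 8 genes tested in WT mice, in fat-1 mice and averaged over the genotypes, with 95% confidence intervals, from all 16 libraries (black) and without the 3 libraries high in large intestine genes (blue). Filled symbols have an adjusted p at or under 0.05: averaged over the genotypes, 4 genes with all libraries and 7 without the 3.

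Of the 8 genes 0 passed by edgeR between genotypes on the PF diet, where 0% of all genes passed, and 0 of 8 passed between genotypes on EtOH, where 0.00724% passed. The log2 fold changes ran from -0.78 (Gnat3) to 0.39 (Sh2d6) in PF mice and from -0.43 (Avil) to 0.20 (Gnat3) in EtOH-fed mice, and the 95% confidence interval of Dclk1 in EtOH-fed mice was -0.58 to 0.48. Limma voom also called 0 of the 8 in both comparisons. DESeq2 called 0 on EtOH and gave none of the 8 an adjusted p on the PF diet. No gene passed edgeR's test of whether the EtOH change differed between fat-1 and WT mice, the interaction, neither of the 8 nor of all genes (0%). At an unadjusted p under 0.05 also 0 of the 8 passed in these 3 tests, against 12.7% (PF), 4.86% (EtOH) and 8.26% (interaction) of all genes in either direction. The smallest unadjusted p of the interaction among the 8 was that of Gnat3 (0.0520), with a log2 difference of 0.98 (SE 0.47, adjusted p = 0.595). The intervals of the interaction were wide, -0.70 to 0.80 for Dclk1 and -1.82 to 1.57 for Sucnr1.

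Other genes of tuft cells were read from lists grouped by role. Of 9 genes of the taste signalling chain 6 were tested, and 1 rose with EtOH in fat-1 mice, where 18.7% of all genes did, and 0 passed in WT mice with all 16 libraries. It was Itpr2, the inositol trisphosphate receptor that releases calcium, at 25.6 ± 13.3 CPM in fat-1 PF (SD, n = 4) and 57.6 ± 16.4 CPM in fat-1 EtOH mice (n = 5), with a log2 fold change of 1.16 (SE 0.32, edgeR adjusted p = 0.0121). In WT mice the genes of this list with the smallest p were Itpr2 (log2 fold change 0.94, SE 0.35, adjusted p = 0.256) and Rgs13, a regulator of G protein signalling (0.90, SE 0.44, adjusted p = 0.369). The median of the list was 0.17 in WT and 0.30 in fat-1 mice. Without the 3 libraries high in large intestine genes Rgs13 rose in fat-1 mice (0.84, SE 0.23, adjusted p = 0.0176), against 0.37 (SE 0.39, adjusted p = 0.477) with all 16. Without all 5 libraries the fat-1 value of Itpr2 was 0.89 (SE 0.26, adjusted p = 0.0502), Rgs13 rose in fat-1 mice (1.09, SE 0.28, adjusted p = 0.0301), and both rose in WT mice (Itpr2 by 1.03, SE 0.23, adjusted p = 0.0432, and Rgs13 by 1.15, SE 0.24, adjusted p = 0.0382).

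Of 6 genes for eicosanoids and acetylcholine, all tested, 1 rose and 1 fell in fat-1 mice, where 18.7% of all genes rose and 18.8% fell, and 0 passed in WT mice with all 16 libraries. Hpgds, the prostaglandin D synthase, rose in fat-1 mice by 0.66 (SE 0.25, edgeR adjusted p = 0.0478), and without the 3 libraries high in large intestine genes its value was 0.49 (adjusted p = 0.134). Ltc4s, the leukotriene C4 synthase, fell by 2.27 on the log2 scale (SE 0.47, adjusted p = 0.00242). Its fat-1 PF values were 4.66, 23.3, 6.01 and 29.5 CPM, of which the 2 high ones were the libraries low in ileal bile acid genes. Its value without all 5 libraries was -0.67 (SE 0.39, adjusted p = 0.245). In WT mice the smallest p were those of Alox5, the 5-lipoxygenase, at 2.64 ± 1.06 CPM in PF (n = 4) and 5.87 ± 1.62 CPM in EtOH-fed mice (n = 3; log2 fold change 1.15, SE 0.46, adjusted p = 0.292), and of Hpgds (0.46, SE 0.28, adjusted p = 0.465). In fat-1 mice the value of Alox5 was 0.66 (SE 0.42, adjusted p = 0.223), and it passed without the 3 libraries (1.02, SE 0.36, adjusted p = 0.0490) but not without the 3 and fat-1 EtOH replicate 5 (1.15, SE 0.38, adjusted p = 0.0547). Without all 5 libraries Alox5 rose in fat-1 mice (1.69, SE 0.40, adjusted p = 0.0250) and in WT mice (1.35, SE 0.33, adjusted p = 0.0493).

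Of 18 genes for structure, surface and signalling 15 were tested, and with all 16 libraries 0 passed in WT mice and 3 rose in fat-1 mice, a share near the 18.7% of all genes. Without all 5 libraries 3 rose in WT mice, where 1.65% of all genes did, and 5 in fat-1 mice, where 4.27% did. Kctd12 was at 55.8 ± 10.3 (PF) and 96.2 ± 12.7 CPM (EtOH) in WT mice and at 46.4 ± 4.87 (PF) and 86.4 ± 18.4 CPM (EtOH) in fat-1 mice. It rose in fat-1 mice by 0.90 (SE 0.16, edgeR adjusted p = 0.00114), and in WT mice the log2 fold change was 0.79 (SE 0.18, adjusted p = 0.118). Krt18, a keratin of the whole epithelium that is dense in tuft cells, rose in fat-1 mice by 0.48 (SE 0.17, adjusted p = 0.0359), with 0.47 in WT mice (SE 0.19, adjusted p = 0.293), and without all 5 libraries the fat-1 value was 0.33 (SE 0.16, adjusted p = 0.168) and the WT value passed (0.59, SE 0.14, adjusted p = 0.0498). Cd24a rose in fat-1 mice by 0.90 (SE 0.29, adjusted p = 0.0247), where its 2 highest values, 608 and 356 CPM, were those of the libraries high in large intestine genes. Without these 3 libraries it did not pass (0.36, SE 0.15, adjusted p = 0.0920). The median of the list was 0.47 in WT and 0.26 in fat-1 mice.

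The type 2 circuit, of which 13 of 19 genes were tested, went in both directions, with 0 genes past the threshold in WT mice and 1 higher and 3 lower in fat-1 mice, where 18.7% and 18.8% of all genes were. Retnlb, a goblet cell product that IL-13 induces, had 1.86 CPM or less in every PF library and was at 8.42, 36.6 and 8.65 CPM in WT EtOH and 5.89, 1.19, 70.3, 62.2 and 6.50 CPM in fat-1 EtOH replicates in order. Its 3 highest values were those of the libraries high in large intestine genes. It rose in fat-1 mice (edgeR adjusted p = 0.00282), also without these 3 libraries (adjusted p = 0.00481), and its WT adjusted p was 0.187 with all 16 libraries and 0.0421 without all 5. Il33, an alarmin that activates the same lymphoid cells as IL-25, fell in fat-1 mice by 2.45 (SE 0.42, adjusted p = 0.000901), from 28.8 to 66.0 CPM in PF to 4.43 to 19.5 CPM in EtOH libraries. In WT mice it was at 13.5 to 38.5 CPM in PF and 5.46 to 8.40 CPM in EtOH libraries (log2 fold change -2.06, SE 0.51, adjusted p = 0.156). The fat-1 value without all 5 libraries was -1.57 (SE 0.48, adjusted p = 0.0648). The IL-13 receptor gene Il13ra1 fell in fat-1 mice by 0.66 (SE 0.18, adjusted p = 0.0125) and Stat6, which signals below it, by 0.33 (SE 0.13, adjusted p = 0.0484), and neither passed without the 3 libraries (adjusted p = 0.0517 and 0.253). The cytokine genes themselves were at the limit of counting: Il13 and Il9 had no count in any library, which allows up to 0.246 to 0.421 CPM, and Il4 had at most 4 counts and Il5 at most 1.

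**Figure D3:**
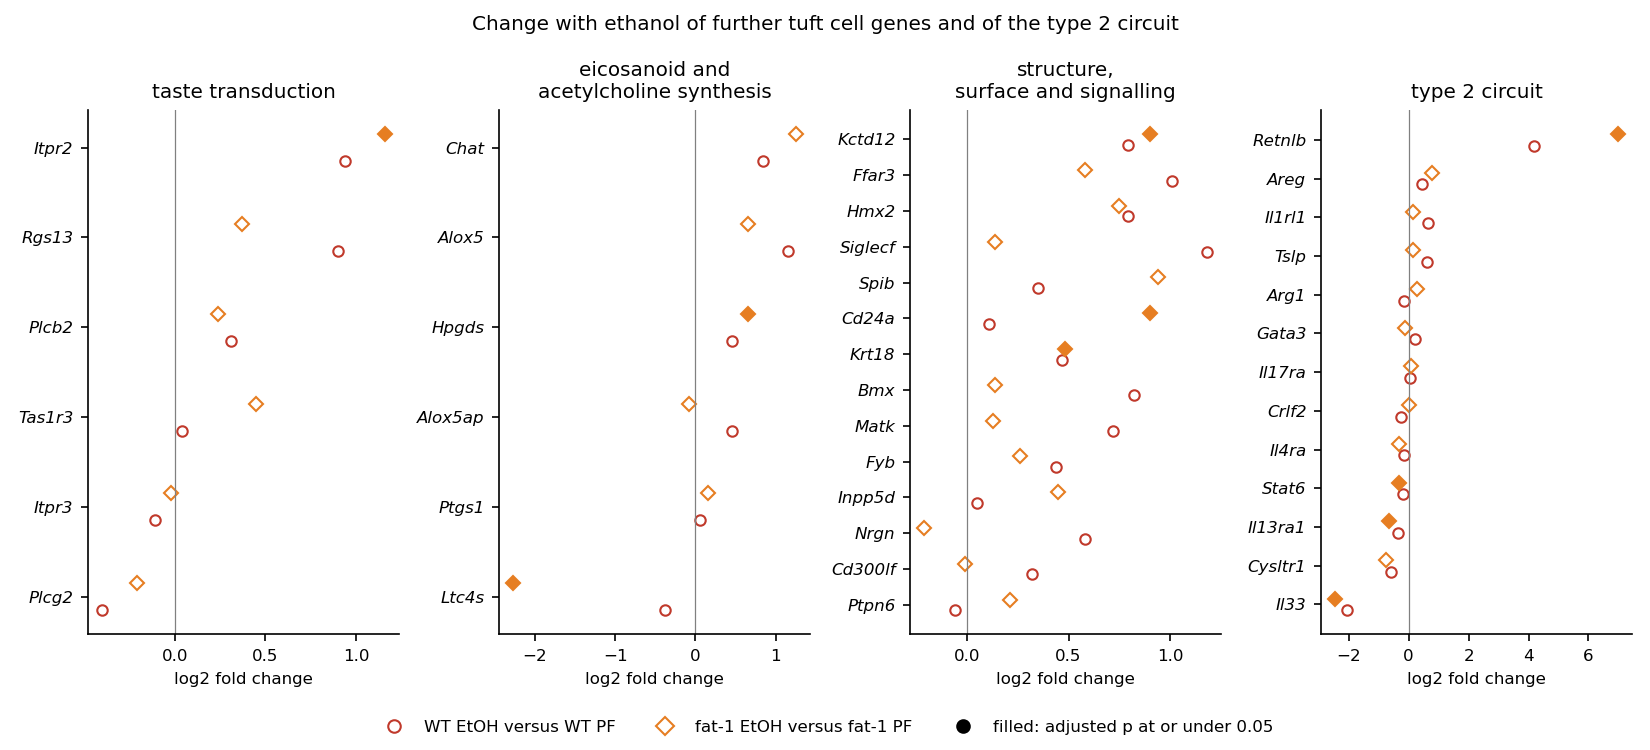
Log2 fold change with EtOH (x axis, each panel with its own scale) of further tuft cell genes and of the type 2 circuit in WT mice (circles) and fat-1 mice (diamonds), ordered by the change averaged over the genotypes. Filled symbols have an adjusted p at or under 0.05, all of them in fat-1 mice: Itpr2, Hpgds, Kctd12, Krt18, Cd24a and Retnlb as higher, and Ltc4s, Il33, Il13ra1 and Stat6 as lower.

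Markers of other cells were read beside the tuft cell genes, and some moved with the diet. The summed smooth muscle genes were at 953 to 1486 CPM in PF and 1919 to 4172 CPM in EtOH libraries, with the 2 highest in the fat-1 EtOH libraries high in large intestine genes, and their part in the tuft cell results was not tested. The summed genes of mast cells, basophils and platelets, which share Gfi1b and Alox5 with tuft cells, were at 20.4 to 28.4 CPM in PF and 32.0 to 99.97 CPM in EtOH libraries. Most of this sum was Kit, at group means of 11.6 to 46.3 CPM, whereas the mast cell genes Cpa3, Fcer1a, Ms4a2 and Mcpt4 had at most 4 counts in any library. Another mast cell gene of this list, Mcpt1, was not that low, with a mean of at least 1 CPM over the 16 libraries. The macrophage genes, which share Alox5ap with tuft cells, were at 187 to 315 CPM in PF libraries, at 706 CPM in fat-1 EtOH replicate 5 and at 122 to 257 CPM in the other EtOH libraries. Of 8 ILC2 and T cell genes 2 rose with EtOH in fat-1 mice (median log2 fold change 1.11), where 18.7% of all genes did, 6 did without the 3 libraries high in large intestine genes (median 1.24, 13.9% of all genes), and 1 did without the 3 and fat-1 EtOH replicate 5 (median 0.39, 7.24% of all genes). The first and the last of these counts are near the share of all genes. Of 8 B-cell follicle genes 0 passed in fat-1 mice by edgeR with all 16 libraries, all 8 values were positive (median 1.71), and 2 rose without the 3 libraries, where 13.9% of all genes did. Without the 3 and fat-1 EtOH replicate 5, 0 of these 8 genes passed (median 1.04), and their sum, 502 CPM in that library, was 2.05 to 83.8 CPM in the other fat-1 EtOH and 5.05 to 67.4 CPM in the fat-1 PF libraries. Of 8 goblet cell genes 4 rose and 1 fell with EtOH in fat-1 mice (median 0.51), where 18.7% of all genes rose and 18.8% fell, and 0 passed in WT mice (median 0.09). In fat-1 mice 2 goblet cell genes rose and 1 fell without the 3 libraries (median 0.16), 2 rose and 0 fell without the 3 and replicate 5 (median 0.27), and 1 rose and 0 fell without all 5 (median -0.07), where 2 rose in WT mice. In these 3 fits 13.9%, 7.24% and 4.27% of all genes rose in fat-1 mice, and 1.65% rose in WT mice without all 5. The summed goblet cell genes were at 10701 to 15897 CPM in PF and 11938 to 18838 CPM in EtOH libraries. The part of these cells in the tuft cell results was not tested.

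**Figure D4:**
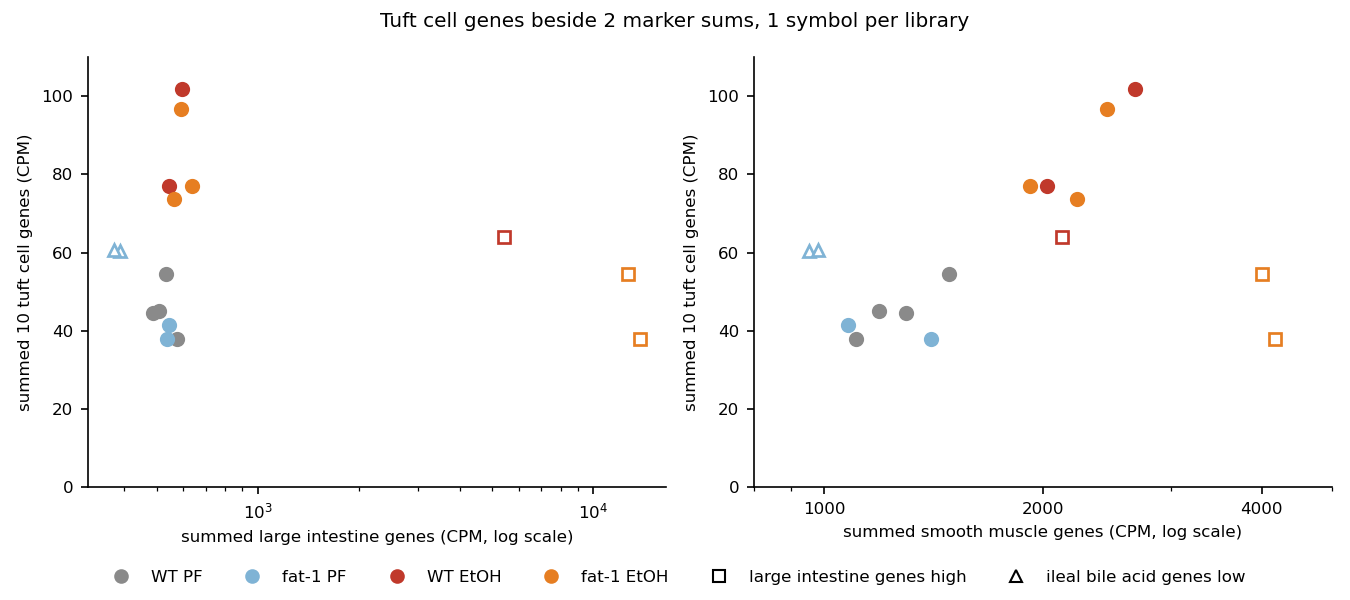
Summed CPM of the 10 tuft cell genes (y axis) against the summed CPM of large intestine genes (left) and smooth muscle genes (right, both x axes logarithmic), with 1 symbol per library. The EtOH libraries with few large intestine genes lie at 73.7 to 101.7 CPM, the 3 with many (open squares) at 37.9 to 64.0 CPM, and the PF libraries at 37.8 to 60.8 CPM.

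How the genes varied between mice of 1 group was described with the deviation of log2 CPM from the group mean over the 16 libraries, each a separate mouse, where the values of different genes in 1 library come from the same tissue piece and depth. Sh2d6 and Avil went together most closely (Pearson's r = 0.919), and the median r of a gene with the other 7 was 0.729 for Sh2d6, 0.724 for Avil, 0.687 for Sucnr1, 0.576 for Pou2f3 and Il17rb, 0.545 for Trpm5, 0.392 for Dclk1 and 0.136 for Gnat3. Dclk1 and Gnat3 thus followed the others least. These r values are given only for all 16 libraries, which include the 3 high in large intestine genes. Gnat3 had 3 to 20 counts per library, and the part of counting error in its r was not tested. The libraries farthest from their group were fat-1 EtOH replicate 4, with a mean deviation of -1.93 SD over the 8 genes, and fat-1 EtOH replicate 1, at 1.37 SD. Of 13258 genes with a mean of at least 1 CPM, those most like the mean deviation of the 8 included Rgs13 (r = 0.946), Alox5 (0.919), Ppic (0.892), Rnase1 (0.891), Alox5ap (0.890), Fasl (0.888) and Pram1 (0.884), of which Rgs13, Alox5 and Alox5ap were on the tuft cell lists. For the tuft cell list genes that rose with EtOH in fat-1 mice, r was 0.586 (Kctd12), 0.238 (Krt18), 0.151 (Itpr2), -0.0481 (Hpgds) and -0.451 (Cd24a). Without the 3 libraries high in large intestine genes, over 13 libraries, Alox5 ranked first (r = 0.899), Rgs13 was 12 and Alox5ap 16, and Fasl fell to rank 33, Rnase1 to 77, Pram1 to 82 and Ppic to 201. Of the 8 genes then most like the members 6, led by Camk2b (r = 0.862) and Ppp1r3c (0.844), were on no tuft cell list.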

How the data were processed

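RNA-seq was performed on 16 ileum libraries. The authors aligned the reads with tophat2 2.0.13 to mm10 and counted them per gene with htseq, with Ensembl build 82 named in the submitters' processing notes, and the deposited values are raw counts. The members and gene lists were chosen with earlier results of these data known.

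Counts were tested with edgeR 4.0.16 (R 4.3.3; filterByExpr, TMM, robust quasi-likelihood, 1 mean per group over 16 libraries, Benjamini-Hochberg adjustment over 13811 genes, threshold 0.05). CPM used TMM-adjusted library sizes, and the exact permutation test used log2(CPM + 0.5). The averaged comparison uses the mice of both genotype comparisons again. DESeq2 1.42.0 and limma 3.58.1 served as alternatives. The counts of alternatives also include other normalisations and filters, a replicate block, fits of only the groups compared and fits that leave out libraries. Each of the 16 libraries was left out once, also those outside the groups compared, so that these counts are not independent checks. Positions and exon lengths came from GENCODE M21, and promoter windows from RefSeq. Where members are not concerned, a list's genes were named by the smallest p (up to 4 past the threshold, otherwise 2 by unadjusted p), and the 8 genes most like the members by correlation. A gene that these rules reach is not reported here.

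The labels do not say that a replicate number marks a shared litter or day, and each library is 1 mouse. Library numbers in the labels run from 1 to 8 for PF and from 9 to 16 for EtOH, so that whatever these numbers stand for, which the labels do not say, cannot be told apart from diet. Replicates differed by more than counting noise (chi-square per degree of freedom 7.69 to 204), so none was merged.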

Additional observations from a re-analysis of the deposited data

Results flagged for a closer look

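Of 30 gene and group combinations checked for a library far from the rest of its group, 1 stood out, and how often chance alone gives this is not given for genes with so few counts. It was Il25 in WT PF replicate 3, at 0.111 CPM from 1 count, where the other 3 WT PF libraries had no count. A single count is within counting error of 0.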

How the results depend on the processing

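Of the 8 genes, 0 passed with EtOH in WT mice by edgeR, 6 with limma voom, 2 with only the groups compared, 2 without the 5 libraries that gut region genes set apart and 0 to 0 on leaving out 1 library. With EtOH in fat-1 mice 3 passed, 5 without the 3 libraries high in large intestine genes, and 2 (without fat-1 PF replicate 2 or 4) to 5 (without fat-1 EtOH replicate 4). Averaged, 4 passed, 7 with limma voom, without the 3, without the 5 and without the 3 and fat-1 EtOH replicate 5 (4 in fat-1 mice), and 2 (without WT EtOH replicate 3) to 6 (without fat-1 EtOH replicate 4). The 3 settings without several libraries were chosen after seeing the data. The genotype comparisons and the interaction were at 0 in each alternative that gave them an adjusted p, which DESeq2 did for none of the 8 in fat-1 against WT mice on the PF diet, and the interaction was not fitted with only the groups compared. The cause of these differences was not tested.

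Over all genes, 11 passed with EtOH in WT mice, 257 with DESeq2, 2800 with limma voom, 3 scaled to the epithelial genes, 2 with the looser and 0 with the stricter filter, 1103 with only the groups compared, 26 without the 3, 468 without the 5 and 30 without the 3 and fat-1 EtOH replicate 5, and 0 (without WT EtOH replicate 1 or 3) to 66 (without WT PF replicate 4). With EtOH in fat-1 mice 5170 passed, 3402 scaled to the epithelial genes, 3086 with only the groups compared, 1626 without the 5, 2388 without the 3 and fat-1 EtOH replicate 5, and 3928 to 5430 on leaving out 1 library. Between genotypes on the PF diet 0 passed (1758 at unadjusted p under 0.05), 189 with DESeq2, 31 with limma voom and 0 to 114 (without fat-1 PF replicate 3). Between genotypes on EtOH 1 passed, 5 with DESeq2 and 0 to 1 on leaving out 1 library. Averaged, 4955 passed, 5828 with limma voom, 4534 without the 3, 3781 without the 5, 3930 without the 3 and fat-1 EtOH replicate 5, 3162 scaled to the epithelial genes and 3798 to 5245 on leaving out 1 library. Upper-quartile factors moved the median of all genes to 0.20 with EtOH in fat-1 mice, where 3906 of 5659 calls were higher against 2578 of 5170.

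The replicate number is only a name, not a pairing: same-numbered libraries had a mean correlation of -0.0225 over 21 pairs and 1 of 16 libraries was most like its own number. With the replicate block 0, 3 and 3 of the 8 genes passed in WT, fat-1 and averaged, with 18, 4748 and 4836 genes in all.

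No value changed sign with EtOH in WT mice or averaged, and no call changed sign. Uncalled values that did were, with EtOH in fat-1 mice, Trpm5 (-0.01 with the replicate block, -0.07 to 0.30 on leaving out 1 library) and Sh2d6 (-0.03, -0.11 to 0.34). Between genotypes on the PF diet they were Dclk1 (0.11) and Pou2f3 (0.03) scaled to the epithelial genes, Dclk1 on leaving out 1 library (-0.28 to 0.01), and Trpm5 (-0.05), Avil (-0.18) and Sh2d6 (-0.13) without the 5. Between genotypes on EtOH they were Dclk1 (0.11 scaled to the epithelial genes, -0.29 to 0.18 on leaving out 1 library) and Il17rb (0.02 with limma voom, 0.23 without the 3 and without the 5, -0.35 to 0.03 on leaving out 1 library), and without the 3 and fat-1 EtOH replicate 5 Il17rb (0.22), Pou2f3 (0.07) and Sh2d6 (0.04). In the interaction they were Dclk1 (-0.06 with limma voom, -0.01 with the block, -0.04 without the 3, -0.19 to 0.28), Pou2f3 (0.00 with limma voom, 0.09 without the 3), Il17rb (-0.01 to 0.37), Sucnr1 (0.26 without the 3, 0.37 without the 5, -0.37 to 0.22) and Sh2d6 (0.10 without the 5), and without the 3 and fat-1 EtOH replicate 5 Dclk1 (-0.04), Pou2f3 (0.22) and Sucnr1 (0.16).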
